A study of Homo sapiens with 4 samples.

Results

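The miR-30 family was followed in small RNA libraries of extracellular vesicles (EVs), the membrane particles that cells release into their medium. Its members were taken by name as the 5 guide strands hsa-miR-30a-5p, hsa-miR-30b-5p, hsa-miR-30c-5p, hsa-miR-30d-5p and hsa-miR-30e-5p, out of 1619 miRNAs listed in the processed tables, and all 5 had reads in every library. The source cells were wild-type MDA-MB-231, a long-established human line of triple-negative breast cancer with mesenchymal character. The group 231 EV was collected from cells in EV-free DMEM and the group 231 -G EV from cells in medium lacking glucose, in both cases over 12 h, with EVs pelleted at 110000 × g for 70 min. Each group had 2 libraries, and the replicate number also marked the preparation: in replicate 1 some RNA modifications were stripped before ligation and inserts of 14 to 40 nt were selected, whereas replicate 2 used an NEBNext small RNA kit. The preparation and any other difference between the replicates cannot be told apart. The labels do not say whether the libraries came from separate cultures. The p-values of tests over both replicates therefore measure only the spread between these libraries, and those within 1 replicate measure only counting error.

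A miRNA is cut from a hairpin precursor, and 1 strand, the guide, is loaded into Argonaute while the other, the passenger, is mostly degraded. The guide pairs with messenger RNAs mainly through its seed, the short stretch near its 5′ end, so miRNAs with a shared seed share many targets. The miR-30 guides are abundant in epithelia and are known to act on SNAI1, VIM and ITGB3, genes of epithelial-mesenchymal transition and integrin adhesion. Members of the family are studied in breast cancer as restraints on self-renewal and invasion. The comparison of 231 -G EV with 231 EV asked which miRNAs differed in EVs of glucose-starved cells, and here it was made for this family.

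The shared seed and the bases that set the members apart are shown for the 3 guides with an entry in the RefSeq table (GRCh38.p14), with bases 2 to 8 in capitals.
hsa-miR-30a-5p: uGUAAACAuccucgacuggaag
hsa-miR-30e-5p: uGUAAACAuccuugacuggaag
hsa-miR-30c-5p: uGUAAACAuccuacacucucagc
The first 12 bases were the same in all 3. The guides of miR-30a and miR-30e differed at 1 of 22 bases, the substitution C13U, counted from 1 at the 5′ end of hsa-miR-30a-5p. Hsa-miR-30c-5p differed from either one at 5 of 22 bases, between positions 13 and 20. Of the 2370 mature names in the table, 3 carried the seed GUAAACA, and these were the same 3 guides, so no miRNA outside the family was added. The table lacks the guides of miR-30b and miR-30d, so it cannot show that no other human miRNA carries this seed. How reads too short or too altered to separate hsa-miR-30a-5p from hsa-miR-30e-5p were assigned is not given in the sources used here, so the division of reads between this pair is uncertain.

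The passenger strands, shown because their balance with the guides is compared further on, had 4 entries out of 6 and formed a pair of seed groups unlike the seed of the guides.
hsa-miR-30a-3p: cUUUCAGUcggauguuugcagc
hsa-miR-30e-3p: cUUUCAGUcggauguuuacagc
hsa-miR-30c-1-3p: cUGGGAGAggguuguuuacucc
hsa-miR-30c-2-3p: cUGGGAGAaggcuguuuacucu
The passengers of miR-30a and miR-30e shared the seed UUUCAGU, and both passengers of miR-30c shared UGGGAGA.

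The 5 guides are encoded by 6 genes in 3 pairs (GENCODE v29, GRCh38). MIR30A (chromosome 6, 71403551 to 71403621, minus strand) and MIR30C2 (chromosome 6, 71376960 to 71377031, minus strand) lie 26519 bases apart. Both are intronic in LINC00472, a long non-coding RNA gene on the same strand, in 2 of 2 spanning transcripts, and in intron 2 of the 1 spanning transcript of AL136164.2, another such gene on that strand. MIR30E (chromosome 1, 40754355 to 40754446, plus strand) and MIR30C1 (chromosome 1, 40757284 to 40757372, plus strand) lie 2837 bases apart and are intronic in NFYC, the gene of a subunit of the CCAAT-binding factor NF-Y. All 16 spanning transcripts of NFYC on that strand held each of them in an intron. MIR30B (chromosome 8, 134800520 to 134800607, minus strand) and MIR30D (chromosome 8, 134804876 to 134804945, minus strand) lie 4268 bases apart, and no annotated host transcript spanned them. Hsa-miR-30c-5p is the product of 2 genes in different pairs, so its reads cannot be divided between MIR30C1 and MIR30C2.

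Levels rest on read counts and are given in reads per 1000000 of the library total (CPM), not divided by length, since the guides shown differ by at most 1 nt. Totals were 18397 reads in 231 EV and 15597 in 231 -G EV of replicate 1, and 224966 and 170894 in replicate 2. A single read thus equalled 54.4, 64.1, 4.45 and 5.85 CPM, and a count of 0 would allow up to 163, 192, 13.3 and 17.6 CPM (3 reads). Hsa-miR-182-5p, a single miRNA outside the family, held 51.0% of the reads of 231 EV replicate 1 but 2.73% of 231 -G EV replicate 1, and 0.254% and 0.250% in replicate 2. The reads left for every other miRNA in 231 EV replicate 1 were therefore fewer. CPM values use all reads unless stated, and the ratios of replicate 1 between media are also given after removing hsa-miR-182-5p from its totals, while shares and ratios between miRNAs do not depend on the total. Mesenchymal markers of the cell line (hsa-miR-221-3p, hsa-miR-222-3p and hsa-miR-21-5p, 3 of 3 above 0 everywhere) summed to 2.03% and 2.82% in replicate 1 against 32.3% and 26.2% in replicate 2. In replicate 1 this sum was mostly hsa-miR-21-5p, with 356 and 430 reads, against 11 and 6 for hsa-miR-221-3p and 7 and 4 for hsa-miR-222-3p. The 8 blood-cell miRNAs, headed by hsa-miR-451a in replicate 1 and by hsa-miR-142-3p in replicate 2, summed to 20.1% and 43.0% in replicate 1 but 1.07% and 0.472% in replicate 2. In replicate 1 hsa-miR-144-5p was at 0 in both libraries and hsa-miR-150-5p in 231 EV. The epithelial markers, 4 of 4 above 0 in every library, summed to 0.0870% and 0.340% in replicate 1 and to 0.0213% and 0.0117% in replicate 2. In replicate 1 hsa-miR-200b-3p went from 9 to 42 reads and hsa-miR-200c-3p from 3 to 9, whereas hsa-miR-141-3p and hsa-miR-429 each went from 2 to 1. Intervals and limits cover counting error only, since no source names molecular identifiers and PCR copies of 1 molecule count as several reads.

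The family made up a small part of the EV miRNAs, and a larger part in replicate 2. Its summed reads numbered 107 in 231 EV and 188 in 231 -G EV of replicate 1, which were 0.582% (95% Wilson interval 0.482 to 0.702) and 1.21% (1.05 to 1.39) of the libraries. In replicate 2 they numbered 6294 and 6268, or 2.80% (2.73 to 2.87) and 3.67% (3.58 to 3.76). Both libraries of replicate 2 lay above both of replicate 1, so the media overlapped over the 4 libraries, while 231 -G EV was the higher library within each replicate on all reads.

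Hsa-miR-30a-5p, which is encoded in LINC00472, was the most abundant member in replicate 2. It stood at 1576 CPM in 231 EV and 3783 CPM in 231 -G EV of replicate 1, from 29 and 59 reads, and at 14998 and 20334 CPM in replicate 2, from 3374 and 3475 reads. Among all miRNAs of its library it ranked 38, 29, 13 and 10 in the same order. Without hsa-miR-182-5p the levels of replicate 1 were 3216 and 3889 CPM. Its level was higher in 231 -G EV within each replicate on either total, and the higher library of replicate 1 was still below the lower one of replicate 2.

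Hsa-miR-30d-5p led the family in replicate 1. Its levels were 2989.6 and 6604 CPM there, from 55 and 103 reads, against 4956 and 5284 CPM in replicate 2, from 1115 and 903 reads. As a ratio of CPM, it was the member whose level differed least between the replicates in 231 -G EV, and its rank moved only from 18 and 20 to 29 and 27. Both 231 -G EV levels lay above both 231 EV levels, so that the media did not overlap while the replicates did. After removal of hsa-miR-182-5p replicate 1 gave 6099 and 6789 CPM, and replicate 2 gave 4969 and 5297 CPM. The pattern was then reversed, with the media overlapping and the replicates apart.

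Hsa-miR-30e-5p, which differs from hsa-miR-30a-5p by a single base, was a minor member in replicate 1 and a major one in replicate 2. It had 7 and 11 reads in replicate 1 (380.5 and 705 CPM) and 1302 and 1483 reads in replicate 2 (5788 and 8678 CPM), with ranks of 94, 90, 22 and 19. On all reads 231 -G EV was higher within each replicate, but without hsa-miR-182-5p the order turned in replicate 1, at 776 CPM in 231 EV and 725 CPM in 231 -G EV. The replicates did not overlap on either total.

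Hsa-miR-30c-5p and hsa-miR-30b-5p were the least abundant guides of replicate 2. Hsa-miR-30c-5p had 14, 10, 389 and 306 reads, which came to 761 and 641 CPM in replicate 1 and 1729 and 1791 CPM in replicate 2. Hsa-miR-30b-5p, the rarest guide in all 4 libraries, had 2, 5, 114 and 101 reads, or 109, 321, 507 and 591 CPM, and the 2 reads of 231 EV replicate 1 were below the 3 that a count of 0 allows. On all reads hsa-miR-30c-5p was the only guide that was lower in 231 -G EV within a replicate, the first, and there its intervals of 453 to 1277 and 348 to 1180 CPM overlapped almost entirely. Without hsa-miR-182-5p its levels there were 1552 and 659 CPM, and those of hsa-miR-30b-5p 222 and 330 CPM.

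**Figure D1:**
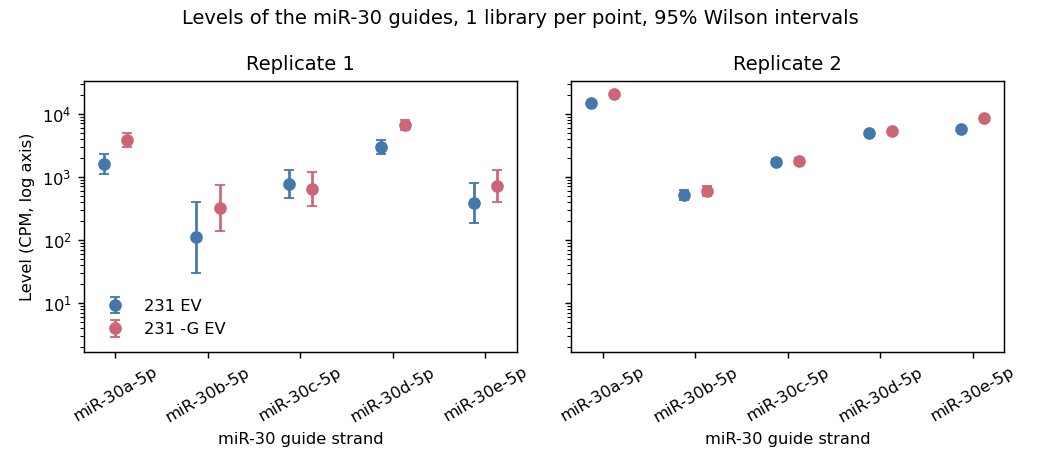
Level of each miR-30 guide in reads per 1000000 (CPM, log axis) in replicate 1 (left) and replicate 2 (right). Each point is 1 library, blue for 231 EV and red for 231 -G EV, and bars are 95% Wilson intervals of counting error, which are shorter than the points for most guides in replicate 2. Hsa-miR-30d-5p is the highest guide on the left at 2989.6 and 6604 CPM, and hsa-miR-30a-5p the highest on the right at 14998 and 20334 CPM.

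The order of the members differed between replicates, and it can be read without the library total, as a share of the summed guide reads. In replicate 1 hsa-miR-30d-5p held 51.4% (95% Wilson interval 42.0 to 60.7) of the family in 231 EV and 54.8% (47.6 to 61.7) in 231 -G EV, against 27.1% (19.6 to 36.2) and 31.4% (25.2 to 38.3) for hsa-miR-30a-5p. In replicate 2 hsa-miR-30a-5p held 53.6% (52.4 to 54.8) and 55.4% (54.2 to 56.7), and hsa-miR-30d-5p held 17.7% (16.8 to 18.7) and 14.4% (13.6 to 15.3). The intervals of both members did not overlap between replicates in either medium.

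The smaller members also changed places. Hsa-miR-30e-5p held 6.54% (3.20 to 12.9) and 5.85% (3.30 to 10.2) in replicate 1 but 20.7% (19.7 to 21.7) and 23.7% (22.6 to 24.7) in replicate 2. Hsa-miR-30c-5p held 13.1% (7.96 to 20.8), 5.32% (2.91 to 9.51), 6.18% (5.61 to 6.80) and 4.88% (4.38 to 5.44) in the order 231 EV and 231 -G EV of replicate 1, then of replicate 2. Hsa-miR-30b-5p was at 1.87% (0.514 to 6.56), 2.66% (1.14 to 6.07), 1.81% (1.51 to 2.17) and 1.61% (1.33 to 1.95), with overlapping intervals in all 4 libraries. In replicate 2 the order from hsa-miR-30a-5p through hsa-miR-30e-5p, hsa-miR-30d-5p and hsa-miR-30c-5p to hsa-miR-30b-5p had no overlap between neighbours in either medium. In replicate 1 the neighbours hsa-miR-30c-5p and hsa-miR-30e-5p overlapped in both media, and all 3 of the smaller members overlapped in 231 -G EV. In 231 EV of that replicate hsa-miR-30a-5p also overlapped hsa-miR-30c-5p, and hsa-miR-30e-5p overlapped hsa-miR-30b-5p.

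**Figure D2:**
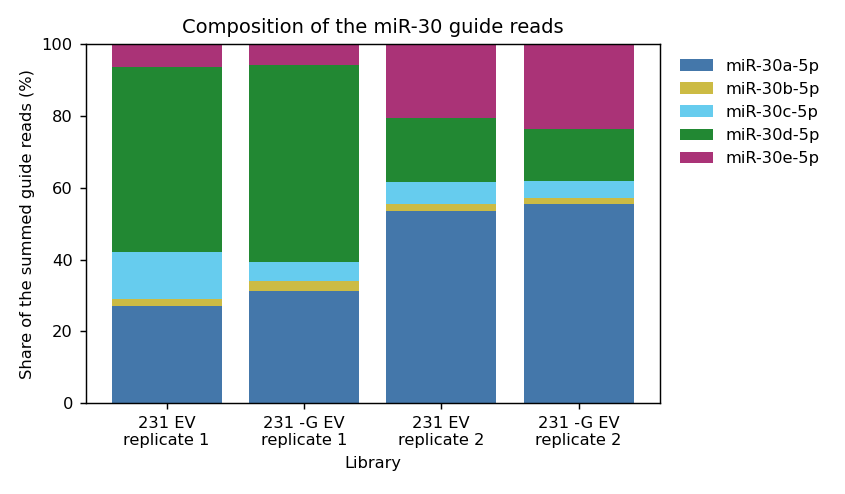
Composition of the miR-30 guide reads, as the percent of the summed guide reads held by each member (stacked, y axis from 0 to 100) in the 4 libraries (x axis). The green part, hsa-miR-30d-5p, is 51.4% and 54.8% in replicate 1 but 17.7% and 14.4% in replicate 2, where the blue part, hsa-miR-30a-5p, is 53.6% and 55.4%.

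Within replicate 2, the deeper pair, the family took a larger share of the reads of 231 -G EV, and the difference lay in the near-identical guides hsa-miR-30a-5p and hsa-miR-30e-5p. The ratio of 231 -G EV to 231 EV was 1.31 (exact 95% interval 1.27 to 1.36) for the summed reads. It was 1.31 again without hsa-miR-182-5p, which at 0.254% and 0.250% of these libraries could hardly move it. Hsa-miR-30a-5p rose 1.36-fold (1.29 to 1.42, Fisher's exact test of its reads, two-sided, adjusted p = 2.32e-35 over 618 miRNAs). Hsa-miR-30e-5p rose 1.499-fold (1.39 to 1.62, exact test, adjusted p = 2.38e-25). Their genes, MIR30A and MIR30E, lie in different hosts on different chromosomes. The blood-cell miRNAs went the other way in this pair, from 2415 to 806 reads, and with them and hsa-miR-182-5p left out the family ratio was 1.30. They too were a small part of these libraries, at 1.07% and 0.472%. Hsa-miR-21-5p, at 302397 CPM in 231 EV and 232922 CPM in 231 -G EV, weighed far more on these totals. How far the family ratio depends on it was not tested.

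The remaining guides did not pass in replicate 2. The ratio was 1.07 (0.975 to 1.16) for hsa-miR-30d-5p (Fisher's exact test, adjusted p = 0.467), 1.04 (0.889 to 1.21) for hsa-miR-30c-5p (adjusted p = 0.935) and 1.17 (0.883 to 1.54) for hsa-miR-30b-5p (adjusted p = 0.615). At the depth of replicate 2 a change of hsa-miR-30d-5p beyond 1.16-fold upward lies outside its interval, whereas the interval of hsa-miR-30b-5p reaches 1.54-fold. Of the 5 guides, 2 were thus called higher and 0 lower, where 9.87% of all 618 miRNAs were called higher and 8.74% lower, and the median ratio was 1.17 over the guides and 0.938 over all. Such a test compares 2 libraries, not the media, and covers counting error only.

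Within replicate 1 the family was also higher in 231 -G EV, but this rested on the total. The summed ratio was 2.07 (1.63 to 2.65) with all reads and 1.04 (0.819 to 1.34) after hsa-miR-182-5p was removed from both totals. Hsa-miR-30d-5p was 2.21-fold higher (1.58 to 3.12, Fisher's exact test, adjusted p = 2.79e-05 over 670 miRNAs) and hsa-miR-30a-5p 2.40-fold higher (1.51 to 3.88, adjusted p = 0.00132). Without hsa-miR-182-5p these became 1.11 (0.795 to 1.57, exact test, adjusted p = 0.844) and 1.21 (0.763 to 1.96, adjusted p = 0.780), so that neither call remained. The blood-cell miRNAs moved in the same direction in this pair, from 3694 to 6699 reads, a ratio of 2.14, or 1.08 without hsa-miR-182-5p. With them and hsa-miR-182-5p both left out, a choice made after seeing the data, the family ratio was 1.10.

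The other guides of replicate 1 had wide intervals. Ratios were 1.85 (0.656 to 5.64) for hsa-miR-30e-5p, 2.95 (0.483 to 31.0) for hsa-miR-30b-5p and 0.843 (0.335 to 2.04) for hsa-miR-30c-5p, and no difference could be detected at this depth (Fisher's exact test, adjusted p from 0.850 to 1). Without hsa-miR-182-5p that of hsa-miR-30e-5p was 0.934 (0.331 to 2.84), that of hsa-miR-30b-5p 1.49 (0.243 to 15.6) and that of hsa-miR-30c-5p 0.425 (0.169 to 1.03). In all, 2 of 5 guides were called higher and 0 lower in replicate 1, against 7.91% and 1.79% of all 670 miRNAs. Leaving out hsa-miR-182-5p brought this to 0 of 5, against 2.69% called higher among all miRNAs.

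**Figure D3:**
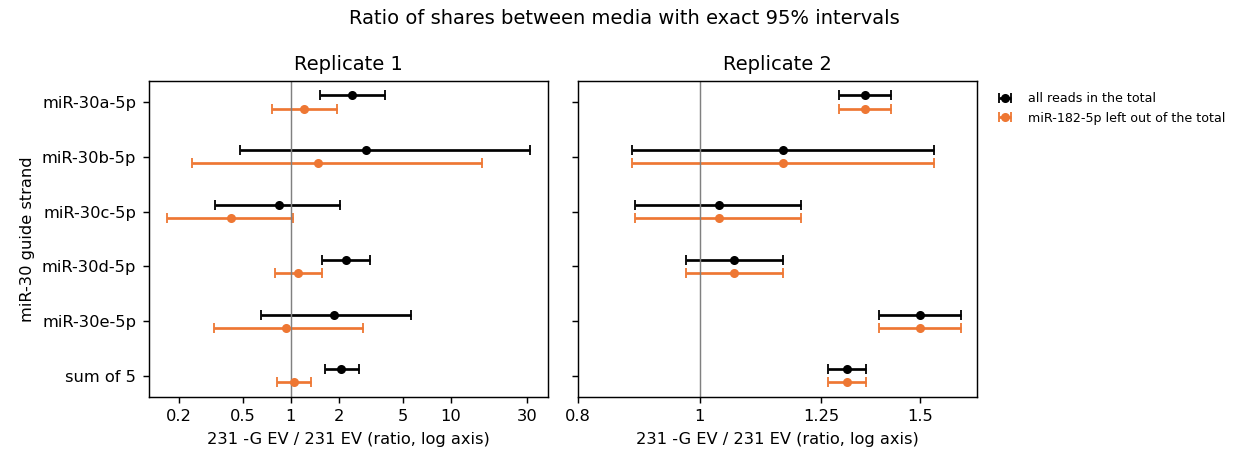
Ratio of the share of reads in 231 -G EV to that in 231 EV (x axis, log scale, different ranges) for each miR-30 guide and their sum in replicate 1 (left) and replicate 2 (right). Points are ratios and bars exact 95% intervals, in black with all reads in the total and in orange with hsa-miR-182-5p left out. The sum moves from 2.07 to 1.04 on the left when hsa-miR-182-5p is left out and is 1.31 either way on the right, where the bars of hsa-miR-30a-5p and hsa-miR-30e-5p lie above 1.

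Across both replicates, no miR-30 guide was called. The quasi-likelihood test of edgeR, with the replicate number as a block, gave log2 fold changes of 0.83 (SE 0.88) for hsa-miR-30a-5p, 0.71 (SE 0.95) for hsa-miR-30e-5p, 0.66 (SE 1.15) for hsa-miR-30b-5p, 0.61 (SE 0.90) for hsa-miR-30d-5p and -0.08 (SE 0.98) for hsa-miR-30c-5p. The adjusted p from edgeR was 0.999 for each, and from 0.964 to 1.00 over the alternative settings. Each estimate was smaller than its own standard error, so none of the 5 exceeded the spread between libraries. The test called 0 of the 384 miRNAs it covered (0%), of which 5 had an unadjusted p under 0.05, none of them a miR-30 guide, and DESeq2 and limma also called 0 of the 5 guides. The median log2 fold change was 0.66 over the guides and 0.20 over all 384, and under TMM scaling these were 0.30 and -0.14. With hsa-miR-182-5p left out, the edgeR log2 fold changes were 0.36 for hsa-miR-30a-5p, 0.33 for hsa-miR-30e-5p and 0.32 for hsa-miR-30b-5p. They were 0.12 for hsa-miR-30d-5p and -0.48 for hsa-miR-30c-5p.

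The study formed its own list with a 1.5-fold threshold, and the paper does not state how the replicates were combined for it. Requiring each replicate to pass was a choice made here, and no guide passed in both. On the edgeR estimates over both replicates, 4 of 5 guides exceeded 1.5-fold, with log2 fold changes from 0.61 to 0.83. With hsa-miR-182-5p left out, the highest edgeR estimate was 0.36, for hsa-miR-30a-5p, which is below 1.5-fold. Folds of CPM plus 1 in replicate 1 and replicate 2 were 2.40 and 1.36 for hsa-miR-30a-5p, 1.85 and 1.499 for hsa-miR-30e-5p, 2.93 and 1.17 for hsa-miR-30b-5p, 2.21 and 1.07 for hsa-miR-30d-5p, and 0.843 and 1.04 for hsa-miR-30c-5p. Replicate 1 alone passed 4 of 5 as higher, where it passed 33.8% of all, and replicate 2 alone passed 0 of 5, against 21.7% of all. Without hsa-miR-182-5p, replicate 1 alone passed 0 of 5 as higher, against 23.8% of all, and hsa-miR-30c-5p as lower, against 27.5% of all. Among the 539 miRNAs that both tables listed, 7.24% passed as higher in both pairs and 6.68% as lower.

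Ratios between members are free of the library total and of hsa-miR-182-5p, and 1 of them had an interval that excluded 1 in the same direction in both replicates. Hsa-miR-30c-5p per hsa-miR-30a-5p read went from 0.483 in 231 EV to 0.169 in 231 -G EV of replicate 1, a change of 0.351 (exact 95% interval 0.140 to 0.850), and from 0.115 to 0.0881 in replicate 2, a change of 0.764 (0.655 to 0.889). Hsa-miR-30c-5p was therefore lower relative to hsa-miR-30a-5p in both 231 -G EV libraries, with 10 reads behind the lower value of replicate 1. Per hsa-miR-30e-5p it went from 0.299 to 0.206 in replicate 2, a change of 0.691 (0.593 to 0.804), while in replicate 1 the change of 0.455 had an interval of 0.181 to 1.10.

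The 2 leading guides of the replicates also shifted against each other. Hsa-miR-30d-5p per hsa-miR-30a-5p read was 1.90 and 1.75 in replicate 1, a change of 0.920 (0.657 to 1.30), and 0.330 and 0.260 in replicate 2, a change of 0.786 (0.719 to 0.859). The replicates thus differed in this ratio far more than the media did. Hsa-miR-30e-5p per hsa-miR-30a-5p changed by 1.11 (1.03 to 1.19) in replicate 2 and by 0.772 (0.273 to 2.35) in replicate 1. Hsa-miR-30b-5p, whose gene neighbours MIR30D, kept an interval that included 1 against both hsa-miR-30d-5p (1.09, 0.829 to 1.44) and hsa-miR-30a-5p (0.860, 0.652 to 1.13) in replicate 2. Of 6 such ratios, the interval lay below 1 for 1 in replicate 1 and for 3 in replicate 2, and above 1 for 0 and 1. These intervals are not adjusted for their number.

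The passenger strands were rarer, and their summed reads went the other way in replicate 2. Hsa-miR-30a-3p had 1 and 5 reads in replicate 1 and 164 and 108 in replicate 2, and hsa-miR-30e-3p had 3 and 7, then 84 and 45. Hsa-miR-30c-2-3p had 1, 0, 22 and 7 reads and hsa-miR-30d-3p had 1, 0, 7 and 2. Hsa-miR-30b-3p had a single read, in 231 EV replicate 2, and hsa-miR-30c-1-3p, listed for replicate 2 only, had 3 and 0. The 4 passengers with reads in both libraries of replicate 2 had ratios below 1, as had 322 of all 618 miRNAs, and the 1 and 3 reads of the other two are within what a count of 0 allows. Fisher's exact test called 0 of 6, where 8.74% of all were called lower (adjusted p = 0.615 for hsa-miR-30a-3p and 0.244 for hsa-miR-30e-3p). Their summed reads went from 281 to 162, a ratio of 0.759 (0.622 to 0.924), and in replicate 1 from 6 to 12, a ratio of 2.36 (0.819 to 7.66), or 1.19 (0.413 to 3.86) without hsa-miR-182-5p. The 4 passengers that edgeR could test had log2 fold changes from -1.65 (SE 2.55) to 0.59 (SE 1.17), with adjusted p = 0.999.

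The balance of each passenger with its own guide was described for replicate 2. For miR-30a and miR-30e the guide had itself risen, which lowers such a ratio, and the ratios of the passengers alone had intervals that included 1, at 0.867 (0.674 to 1.11) and 0.705 (0.480 to 1.02). Reads of hsa-miR-30a-3p per hsa-miR-30a-5p read went from 0.0486 to 0.0311, a change of 0.639 (0.497 to 0.820), and those of hsa-miR-30e-3p per hsa-miR-30e-5p read from 0.0645 to 0.0303, a change of 0.470 (0.320 to 0.683). Hsa-miR-30c-2-3p per hsa-miR-30c-5p read changed by 0.404 (0.146 to 0.980), with a guide that MIR30C1 also supplies. For hsa-miR-30d-3p per hsa-miR-30d-5p read, from 7 and 2 passenger reads, the change was 0.353 (0.0358 to 1.85), an interval that included 1. In replicate 1 the changes were 2.46 (0.275 to 116) for miR-30a and 1.48 (0.339 to 8.90) for miR-30e, which these reads cannot tell from no change.

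The strand balance of other hairpins moved in both directions. Over the 25 hairpins whose minor strand had at least 40 reads in replicate 2, summed over both libraries, minor per major strand was lower in 231 -G EV for 10 and higher for 15, with a median change of 1.17. The interval lay below 1 for 9 of them, miR-30a and miR-30e included, and above 1 for 6. With a minimum of 20 reads there were 38 hairpins, of which 16 were lower, and the median change was 1.13. This comparison was chosen after seeing the data, and no hairpin reached 40 reads in replicate 1.

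**Figure D4:**
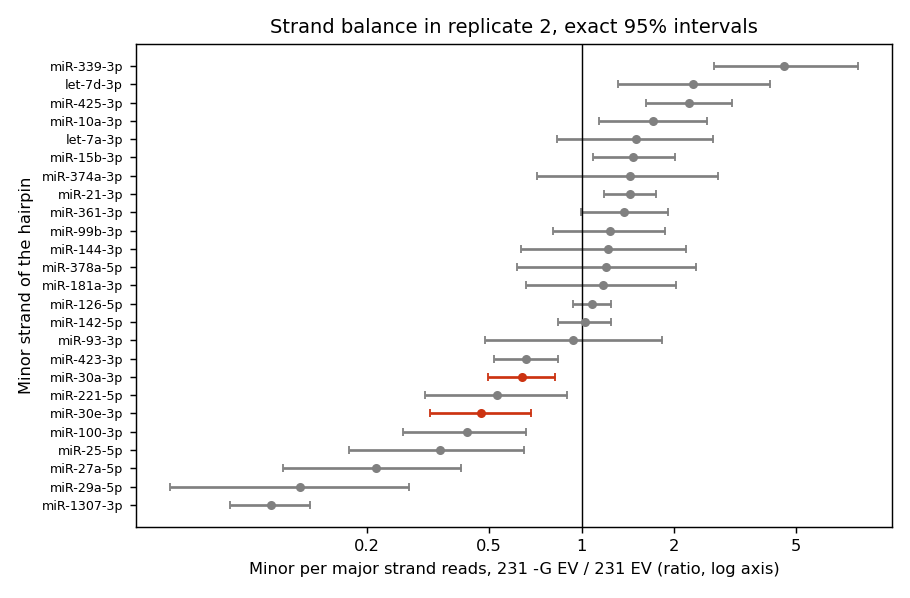
Change of the minor strand per major strand between media in replicate 2, as the ratio of 231 -G EV to 231 EV (x axis, log scale), for 25 hairpins named by their minor strand (y axis). Points are ratios and bars exact 95% intervals. The miR-30 strands, in red, sit at 0.639 and 0.470 among the 10 hairpins below 1.

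The let-7 family, with hsa-miR-98-5p a set of 9 guides known to restrain proliferation and RAS genes, served as the family for comparison. Its summed reads were 1044 and 1357 in replicate 1 and 36244 and 20281 in replicate 2, or 5.67%, 8.70%, 16.1% and 11.9% of the libraries. In replicate 1 its ratio was 1.53 (1.41 to 1.66), with 3 of 9 members called higher and 0 lower by Fisher's exact test (7.91% and 1.79% of all miRNAs), but without hsa-miR-182-5p it was 0.773 (0.712 to 0.838), with 0 higher and 4 lower (2.69% and 5.08% of all). In replicate 2 it was lower in 231 -G EV, at a ratio of 0.737 (0.724 to 0.749), with 1 of 9 members called higher and 7 lower by Fisher's exact test (9.87% and 8.74% of all). Reads of miR-30 per let-7 read, a measure free of the total, went from 0.174 to 0.309 in replicate 2, a change of 1.78 (1.72 to 1.84). In replicate 1 they went from 0.102 to 0.139, a change of 1.35 (1.06 to 1.73). The miR-30 guides were thus higher relative to let-7 in 231 -G EV of both replicates, beyond counting error, and the difference between the replicates' changes was not tested.

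The miRNAs that oppose epithelial-mesenchymal transition, a role also ascribed to miR-30, did not share 1 direction. The 8 listed (hsa-miR-200a-3p, hsa-miR-200b-3p, hsa-miR-200c-3p, hsa-miR-141-3p, hsa-miR-429, hsa-miR-205-5p, hsa-miR-203a-3p and hsa-miR-34a-5p) summed to 25 and 94 reads in replicate 1, a ratio of 4.44 (2.83 to 7.20), or 2.24 (1.43 to 3.63) without hsa-miR-182-5p, but 240 and 67 reads in replicate 2, a ratio of 0.367 (0.276 to 0.484). By Fisher's exact test, 2 of 8 were higher in replicate 1, namely hsa-miR-200a-3p with 1 and 29 reads (adjusted p = 8.50e-08) and hsa-miR-200b-3p with 9 and 42 (adjusted p = 3.14e-06), and 0 were lower. These shares stand beside 7.91% and 1.79% of all miRNAs, and without hsa-miR-182-5p the same 2 were called (exact test, adjusted p = 0.000705 and 0.0442), beside 2.69% of all called higher. In replicate 2 hsa-miR-205-5p fell from 109 to 3 reads (exact test, adjusted p = 1.14e-21), the only 1 of 8 called, beside 8.74% of all called lower, and edgeR called 0 of 8. The sums rest on these few: the other 6 went from 15 to 23 reads in replicate 1 and the other 7 from 131 to 64 in replicate 2. Hsa-miR-141-3p and hsa-miR-34a-5p had ratios below 1 in both pairs, and hsa-miR-429, with at most 2 reads, went against the sum in each. The ratios of the summed miR-30 guides were 2.07 and 1.31 in these pairs, or 1.04 (0.819 to 1.34) in replicate 1 without hsa-miR-182-5p.

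The miRNAs whose levels were most like the summed miR-30 guides were sought among the 30 others with at least 20 reads in each library, by the root mean square difference of mean-centred log2(CPM + 1) over the 4 libraries. Hsa-miR-25-3p was nearest, at 0.27, with 53, 144, 3023 and 3868 reads. Hsa-miR-191-5p followed at 0.34, then hsa-miR-151a-3p at 0.59, hsa-miR-92a-3p at 0.61 and hsa-miR-26a-5p at 0.63. These 4 points share library totals and preparations, so the distances describe these libraries alone.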

How the data were processed

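The authors deposited whole-number read counts per mature miRNA, beside CPM (replicate 1) and TPM (replicate 2) values that are the deposited counts divided by the library total and multiplied by 1000000 and were used here only to check the counts. The submitters' processing notes name hg38, cutadapt, Bowtie, Bowtie2 and edgeR, and the study's methods describe removal of other small RNA classes and matching to miRBase without separating the preparations. Each replicate had its own table, of 1315 and 843 miRNAs, with 539 in both. Counts were tested with edgeR 4.0.16 (R 4.3.3) on unscaled library totals with a block for the replicate number, over 384 miRNAs that both tables list and that had reads in 2 or more libraries. EdgeR calls were made at a Benjamini-Hochberg adjusted p under 0.05 together with a log2 fold change beyond 1 in either direction. The pairing comes from the preparation in the labels, and over the 384 miRNAs same-numbered libraries deviated together (correlation 0.59). Reads within a pair were compared by two-sided Fisher's exact tests and exact conditional intervals (SciPy 1.17.1), adjusted over all miRNAs with a read in the pair and called at an adjusted p under 0.05 with no limit on the fold. Each test was first tested on simulated counts. The text names the 5 guides, 6 passengers, 9 let-7 guides, 8 transition-opposing miRNAs, marker lists, hsa-miR-182-5p and the 5 nearest profiles. Members and lists were chosen with earlier results of these data known.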

Additional observations from a re-analysis of the deposited data

How the results depend on the processing

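No guide was called by edgeR under any of 7 settings (TMM, DESeq2, limma on log2(CPM + 1), no replicate block, both other filters, hsa-miR-182-5p left out). Without the block by pair the count was likewise 0 of 5, and the block changed no call. The values of replicate 1 depended on the total. With hsa-miR-182-5p left out, the Fisher count fell from 2 to 0, hsa-miR-30e-5p turned from 1.85 to 0.934 and the family ratio moved from 2.07 to 1.04. This ratio was 1.15 under TMM scaling and 1.10 with blood-cell miRNAs left out as well (added after seeing the data). In replicate 2, TMM scaling gave 1.23 in place of 1.31. The log2 fold change of hsa-miR-30e-3p turned from 0.24 to -0.18 (TMM) and -0.17 (hsa-miR-182-5p left out). With totals of the miRNAs in both tables, hsa-miR-200a-3p passed as lower in replicate 2 (ratio 0.438, Fisher's exact test, adjusted p = 0.0494). Without hsa-miR-30c-5p in the sum, replicate 2 gave hsa-miR-30a-5p 57.1% and 58.3% and hsa-miR-30d-5p 18.9% in 231 EV. Leaving out either replicate leaves 1 pair and values with no test. The 1.5-fold count then ran from 0 to 4 higher and, with hsa-miR-182-5p also left out (added after seeing the data), from 0 to 1 lower, and log2 fold changes from -0.25 to 0.050 for hsa-miR-30c-5p, 0.44 to 1.26 for hsa-miR-30a-5p, 0.22 to 1.55 for hsa-miR-30b-5p, 0.09 to 1.14 for hsa-miR-30d-5p, 0.58 to 0.89 for hsa-miR-30e-5p, -0.21 to 2.54 for hsa-miR-30a-3p, -0.50 to 1.45 for hsa-miR-30e-3p, -5.79 to -1.24 for hsa-miR-30c-2-3p and -5.79 to -1.34 for hsa-miR-30d-3p, both with 1 and 0 reads in replicate 1. Depth limits replicate 1, where 3 of 5 guides had under 20 reads in each library.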
